A study of Saccharomyces cerevisiae with 36 samples.

Results

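The exit from the burst is the single interval of about 25 min in which NSR1 and AAH1 messenger RNA left their peak. It was followed in 3 successive cycles of one yeast time course, as the step from the burst array T9, T20 or T32 to the next array, T10, T21 or T33. These 6 arrays were taken from 36, and each exit array was set against the burst array of the same cycle. The burst arrays were chosen by NSR1 and AAH1, and the arrays before them (T8, T19 and T31) and after the exit (T11, T22 and T34) completed a run of 4 consecutive arrays per cycle.

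The organism was Saccharomyces cerevisiae in continuous culture, sampled at 12 positions per cycle over 3 cycles, and total RNA was hybridised to Affymetrix arrays. The labels give no strain, medium or treatment, and all groups shared the same culture label. So far as the labels tell, the groups differed by time alone: before, burst, exit and after, with 1 array per cycle and 3 arrays in each group. The cycles are successive turns of a time course and nothing says that they came from separate cultures, so p-values measure the spread between these cycles. Each deposited value is a multiple of its array's median, so every change below is relative to that median, and less RNA per cell cannot be told apart from fewer cells that carry the transcript.

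In continuous culture, budding yeast can fall into a respiratory cycle in which oxygen uptake alternates between slow and fast phases. A wave of ribosome-building transcripts is known to accompany the fast phase, followed by transcripts for mitochondria and cell division, and then by transcripts of storage carbohydrate, fatty acid oxidation and stress survival. Building a ribosome needs RNA polymerases to make ribosomal RNA and transfer RNA, the small subunit processome and the large subunit assembly factors to fold, cut and modify the precursor, RNA helicases to remodel it, and the ribosomal proteins themselves.

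NSR1, a nucleolar protein of ribosomal RNA processing, stood at 31.2, 26.6 and 33.1 times the array median in the burst arrays of cycles 1, 2 and 3. In the exit arrays it read 2.70, 3.15 and 2.98. AAH1, adenine deaminase of the purine salvage pathway, stood at 25.7, 23.5 and 34.1 in the burst arrays and at 1.35, 4.57 and 2.13 in the exit arrays. Each was at its highest of the cycle in the burst array, and burst and exit values did not overlap. Their mean falls were 3.34 and 3.50 on the log2 scale, which would be a halving every 7.49 and 7.13 min if spread evenly over the interval. Because these 2 genes chose the arrays, their falls carry no test. In the next arrays AAH1 read 0.604, 0.605 and 0.686, and NSR1 read 2.62, 1.72 and 1.54.

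**Figure D1:**
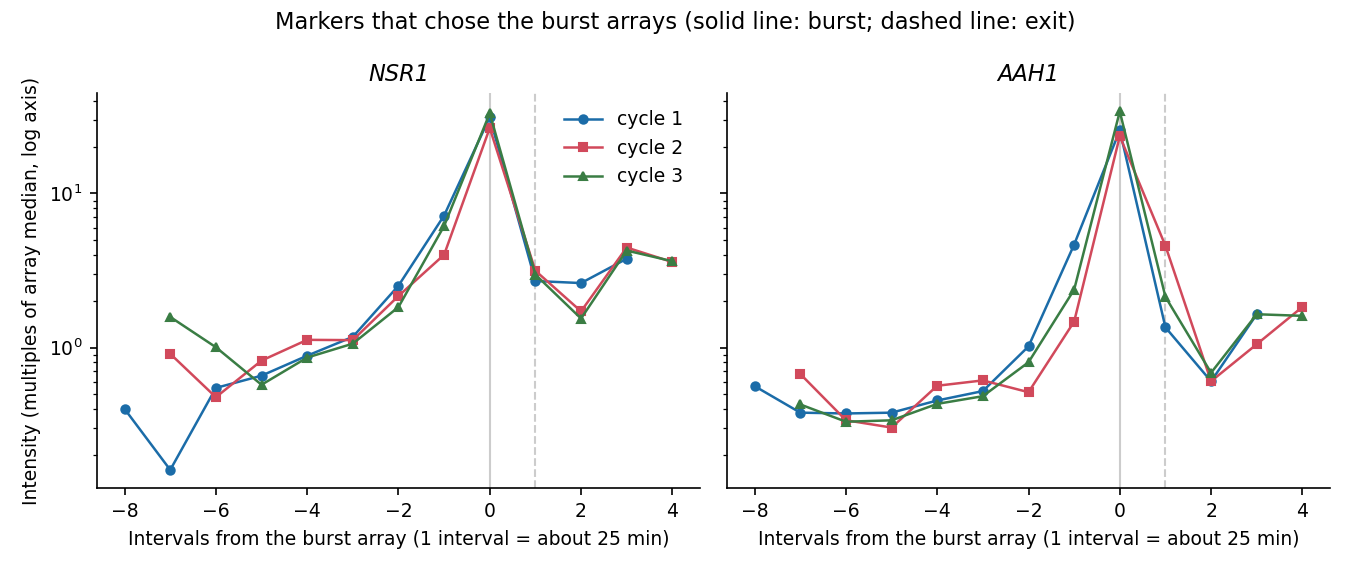
Intensity of NSR1 (left) and AAH1 (right) in multiples of the array median on a log axis, against the number of intervals from the burst array, with 1 line per cycle. Both stand at 23.5 or more at 0 in each cycle and at 4.57 or less 1 interval later.

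Across 5656 genes, limma with the cycle as a block called 710 genes lower (12.6%) and 702 higher (12.4%) in the exit arrays than in the burst arrays at an adjusted p under 0.05. At an unadjusted p under 0.05 there were 2152. The median change over all genes was 0.04 on the log2 scale. Genes that share the course of the 2 chosen markers had to fall here, so these counts describe the step and nothing is read from their size. The same holds below for the p-values of such genes and for the gaps between their burst and exit values. Gaps in genes named for the size of their change were likewise largely fixed by that choice. From burst to exit, 1179 of the 5656 genes were lower and 1323 were higher with no overlap between the groups. The counts of called genes changed most when cycle 3 was left out: they were then 226 and 67. All 710 and all 702 genes kept their direction in that fit. This was largely fixed in advance, because the fit reuses arrays that made the calls. The 2 cycles left in that fit, 1 and 2, were the least alike across genes, with a Pearson correlation of 0.53. The sizes of change moved little: the median of the small subunit processome went from -2.31 to -2.09.

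By size alone, 392 genes (6.93%) dropped by at least 2-fold in each of the 3 cycles, 260 (4.6%) rose by at least 2-fold in each, and 818 (14.5%) stayed within 0.5 log2 in each. The other 4186 genes did none of these. At the edge of the rule, YEH1 and CWC2 had smallest falls of 1.001 and 1.003 log2 and were inside, while CLF1, with a change of -0.999, was outside. MDJ1 rose by at least 1.001 and was inside, and AFG1, at 0.999, was outside. A fall of at least 4-fold in each cycle was seen in 107 genes and of at least 8-fold in 22, whereas 21 and 3 genes rose by as much. Among the 392 that dropped, the median fall was 2.25 log2, or a halving every 11.1 min if spread evenly.

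Ribosome assembly was the main theme among the listed genes that dropped. Of 199 genes in 6 lists of assembly factors, RNA polymerases I and III and RNA-modifying enzymes, 174 were called lower and 1 was called higher. Over all genes 12.6% were called lower and 12.4% higher. The median change of the 199 was -2.20, against 0.04 over all genes. Of the 199, 173 were highest at the burst array in all 3 cycles, so they share the course by which the arrays were chosen. They made up 33.4% of the dropped genes and 3.52% of all genes, and 0.244% of the genes that stayed. Without cycle 3 their count was 99, with a median of -2.01.

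The small subunit processome, which cuts and folds the precursor of the small subunit RNA, had 49 of 52 members called lower and none higher, with a median change of -2.31, and 32 were called without cycle 3. UTP5, one of its early subunits, stood at 8.76, 7.62 and 14.8 in the burst arrays and at 0.717, 0.862 and 0.732 in the exit arrays of cycles 1 to 3. Each burst value lay far above each exit value, and the fall was 3.61 ± 0.31 log2 (SE, n = 3 cycles, adjusted p = 0.000517). UTP13, another subunit, fell by 3.26. The 3 members not called were UTP22, NOP58 and UTP20. UTP22 read 14.0, 4.69 and 7.89 at the burst and 4.52, 6.21 and 3.79 at the exit, so its groups overlapped (adjusted p = 0.20). NOP58, a core protein of box C/D small nucleolar particles, changed by -1.13 (adjusted p = 0.052), on a probe set that can match several transcripts, and UTP20 by -1.16 (adjusted p = 0.086).

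Among large subunit assembly factors, 54 of 56 were called lower and none higher, with a median of -2.39. RSA4, which acts late on the large subunit precursor, read 5.95, 4.89 and 11.0 at the burst and 0.509, 0.616 and 0.380 at the exit. Every exit value was below every burst value by a wide margin, and the fall was 3.66 ± 0.37 log2 (SE, n = 3, adjusted p = 0.000841). SSF1 fell by 3.26. The 2 members not called were REA1 and TIF6. REA1, the giant ATPase that works on RSA4 and is also known as MDN1, read 12.5, 3.8 and 6.74 at the burst and 2.34, 11.7 and 6.61 at the exit: it fell in cycle 1, rose in cycle 2 and was flat in cycle 3. TIF6, which keeps the large subunit from joining early, changed by -0.64 (adjusted p = 0.19).

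All 19 RNA helicases of ribosome assembly were called lower, with a median of -2.62, and 9 of 19 were called without cycle 3. DBP7 read 8.35, 6.51 and 9.80 at the burst and 0.639, 0.507 and 0.407 at the exit, a fall of 3.86 ± 0.30 log2 (SE, n = 3, adjusted p = 0.000514). Its lowest burst value was far above its highest exit value. DRS1 fell by 3.55, and RRP3 and SPB4 fell least, by 1.45 and 1.48. Among nucleolar and small nucleolar particle proteins other than NSR1, 9 of 10 were called lower (4 without cycle 3) and FPR3, a nucleolar proline isomerase, was not (change -0.28). SRP40 and NAF1, which helps assemble box H/ACA particles, fell by 2.96 and 2.91.

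RNA polymerases I and III, which make ribosomal RNA and transfer RNA, split. Of 35 subunits and factors, 21 were called lower and 1 higher, with a median of -1.50, and without cycle 3 the counts were 9 and 0. RPA49 and RPA12, subunits of polymerase I, fell by 2.89 and 2.88. The one called higher was TFC8, a subunit of the polymerase III initiation factor TFIIIC, by 1.25, named here after its value was seen. TFC3 and TFC1, of the same factor, and BRF1, of TFIIIB, changed by 0.86, 0.54 and -0.08 and were not called. The tRNA and rRNA modification enzymes had 23 of 28 members called lower (median -1.68), and 9 without cycle 3. TRM11, a tRNA methyltransferase, read 12.7, 12.5 and 16.7 at the burst and 0.941, 1.33 and 1.11 at the exit, and fell by 3.58 ± 0.28 (SE, n = 3, adjusted p = 0.000514). CCA1, which adds the end of each tRNA, changed by -0.39 (adjusted p = 0.38).

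Of 13 regulators of ribosomal genes, 4 were called lower and 1 higher, against 12.6% and 12.4% of all genes. Without cycle 3 the counts were 1 and 0, and without cycle 2 they were 2 and 0. IFH1, the co-activator at ribosomal protein promoters, read 4.24, 6.51 and 8.87 at the burst and 0.858, 0.406 and 0.338 at the exit. It fell by 3.53 (adjusted p = 0.0013), with no overlap between the groups. TOD6, a repressor of ribosome assembly genes that binds their PAC element, fell by 2.47. CRF1, a co-repressor at ribosomal protein promoters, and FHL1, the factor that IFH1 binds there, fell by 1.05 and 0.99, and these 2 were named after their values were seen. STB3, which binds their RRPE element, was the member called higher, by 0.86 with an adjusted p of 0.0497 in limma, and REB1 and ABF1 changed by 0.87 and -0.05 and were not called.

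Ribosomal proteins did not share the fall of the factors that assemble them. None of 80 genes of the cytosolic ribosome was called in either direction in limma, against 12.6% and 12.4% of all genes. Of the 80, 30 were read by probe sets that can match several transcripts. In other fits 4 were called lower without cycle 2, 2 without cycle 1, 0 without cycle 3 and 1 without the replicate block. At an unadjusted p under 0.05 there were 4 of 80. In 32 genes the level stayed within 0.5 log2 in each cycle. RPS3 read 81.8, 55.5 and 59.7 at the burst and 70.1, 70.5 and 55.0 at the exit, and its mean change rounded to 0.00. The list median was -0.13, but it was -0.45, 0.32 and -0.25 in cycles 1, 2 and 3, and it turned to 0.04 when cycle 1 was left out. The median of the list had been 0.79 log2 lower in the arrays before the burst than at it, and 31 were called higher at the exit than before, with none lower (median change 0.59). In the next interval their median change was -0.42, with 0 of 80 called in limma and 41 at an unadjusted p under 0.05.

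Other parts of translation lay between, and are set here against 12.6% of all genes called lower and 12.4% called higher. Of 35 translation factors, 10 were called lower (median -0.68), with 4 called without cycle 3 and 20 without cycle 2. Among them GCD10, a subunit of a tRNA methyltransferase, fell by 2.85. EFB1, an elongation factor subunit, changed by -0.01. Of 21 cytosolic tRNA synthetases, 2 were called lower (median -0.42), among them WRS1 by 1.00, and 0 without cycle 3 and 6 without cycle 2. Among 39 genes of mRNA decay, 13 were called lower and 1 higher, and without cycle 3 the counts were 3 and 0. The largest falls there were in RRP4 and RRP46, subunits of the exosome that also trims ribosomal RNA, by 2.58 and 1.69, and the member called higher was JSN1, a Puf protein, by 1.26. In the list of RNA polymerase II, 3 of 12 subunits were called lower, namely RPC10, RPB5 and RPB10, which all 3 nuclear polymerases share, by 1.71, 1.53 and 1.2. RPB10 was named after its value was seen, and without cycle 3 none of the 3 was called. RPO21 and RPB2, the large subunits particular to polymerase II, changed by 0.24 and -0.11.

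**Figure D2:**
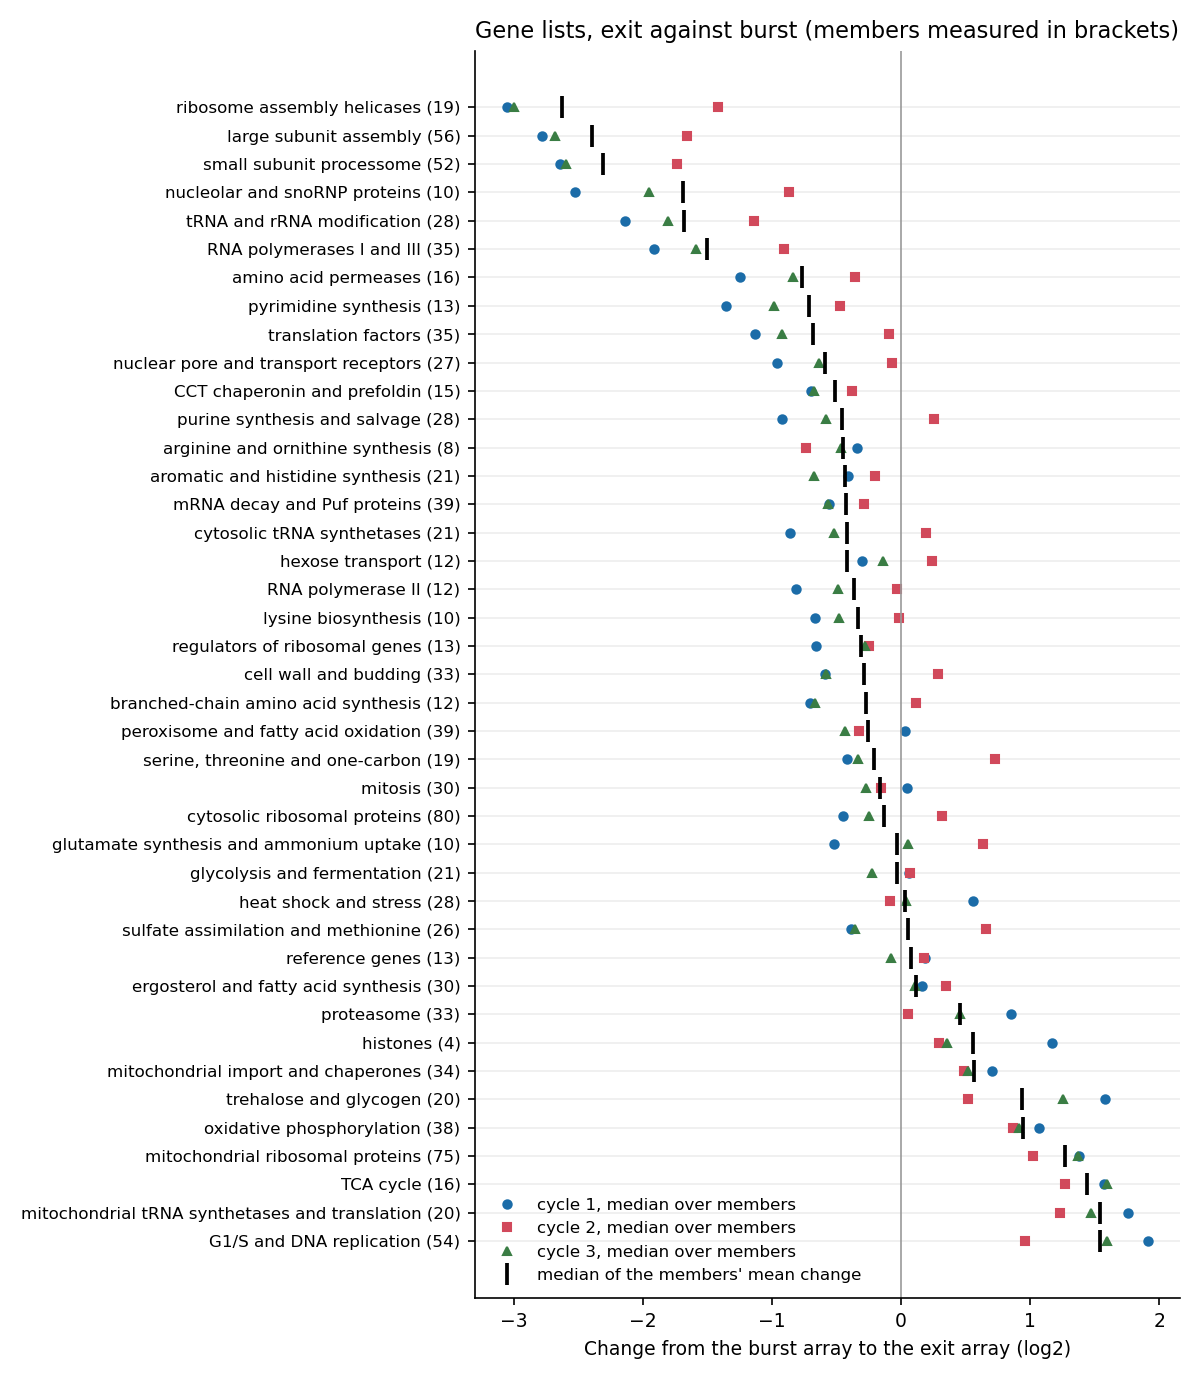
Median log2 change from burst to exit over the members of 41 gene lists, with 1 symbol per cycle and a bar for the median of the members' mean changes. The assembly helicases lie lowest at -2.62 and the G1/S and DNA replication list highest at 1.54, and in the 6 assembly lists cycle 2 (squares) lies nearest to 0.

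Among genes above the dimmest 25%, those with the largest falls outside these lists were of mixed function. YOR338W, a gene without an assigned role here, read 9.64, 20.7 and 23.1 at the burst and 0.422, 1.16 and 0.952 at the exit, and fell by 4.33 ± 0.27 log2 (SE, n = 3, adjusted p = 0.000514). PRM7, a pheromone-regulated gene, fell by 4.24. GPP2, glycerol-3-phosphatase, fell by 3.74, MCH5, a riboflavin transporter, by 3.71, RNT1, the RNase III that cuts pre-ribosomal RNA, by 3.69, and CNS1, a co-chaperone of Hsp90, by 3.53. For all 6 the burst and exit values did not overlap, which their choice as large falls largely fixed. Among nucleotide genes, URA7, CTP synthase, read 29.4, 16.4 and 24.2 at the burst and 2.25, 2.56 and 2.03 at the exit, and fell by 3.29 (adjusted p = 0.00065). URK1, uridine kinase, fell by 2.16. YNK1, nucleoside diphosphate kinase, was the one pyrimidine gene called higher, from 4.69, 6.38 and 4.38 to 26.6, 22.7 and 20.9. In all, 6 of 13 pyrimidine genes were called lower, against 12.6% of all genes, and 3 were called without cycle 3.

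The next 2 lists are set against 12.6% of all genes called lower and 12.4% called higher. Amino acid permeases had 7 of 16 members called lower and none higher (median -0.76). Without cycle 3 the count was 1 lower, and without cycle 1 it was 5 lower and 2 higher. GNP1, a glutamine permease, fell by 2.93 and HIP1, the histidine permease, by 1.58, while the general permease GAP1 read 47.1, 40.2 and 42.5 at the burst and 23.0, 53.5 and 36.4 at the exit, with overlapping groups. In cell wall and budding genes, 8 of 33 were called lower and 1 higher, and without cycle 3 the counts were 5 and 0. DSE4 and SUN4, glucanase family proteins linked to daughter-cell separation, fell by 3.38 and 2.62, and SCW10, another cell wall glucanase, was called higher by 1.47, although its burst and exit values overlapped (10.5, 2.27 and 3.51 against 17.7, 10.1 and 10.2).

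The dropped genes came to the burst by different routes. Of the 392, 338 had been higher at the burst than before it in each cycle and 330 were at their highest of the cycle in the burst array, so the exit ended a rise. Their median change over the step before was 1.95 and their median change from before to exit was -0.35. A further 33 had fallen into the burst in each cycle and fell again at the exit, with a median total of -3.69 from before to exit. The other 21 had no common direction into the burst. Of all 550 genes that had risen at least 2-fold into the burst in each cycle, 262 (47.6%) dropped at the exit, 12 (2.2%) stayed, 0 rose, and 276 (50.2%) met none of these rules.

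The genes that fell on both steps included several of fatty acid oxidation and stress defence. FOX2, the multifunctional enzyme of peroxisomal beta-oxidation, read 21.4, 21.4 and 24.5 before the burst, 4.65, 14.1 and 10.3 at the burst and 0.447, 0.739 and 0.812 at the exit. Its fall at the exit was 3.66 ± 0.29 log2 (SE, n = 3, adjusted p = 0.000514). CTT1, cytosolic catalase, went from 10.3, 10.2 and 13.0 through 0.789, 2.72 and 1.98 to 0.139, 0.200 and 0.232. Each of the 3 groups lay apart from the next for both genes. CTA1, the peroxisomal catalase, fell by 2.88, GRE1, a hydrophilin of stressed cells, by 3.48, TKL2, a minor transketolase (read by a probe set that can match several transcripts), by 3.16, FAT3, a fatty acid uptake protein, by 3.21, and HEF3, an elongation factor 3 paralog, by 3.29. In 23 of the 33, cycle 2 was the highest and cycle 1 the lowest of the burst arrays, as for FOX2 and CTT1.

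The peroxisome list as a whole did not follow FOX2. Of 39 members, 9 were called lower and 4 higher, against 12.6% and 12.4% of all genes. The median was -0.26, and without cycle 3 the counts were 6 and 0. PEX29 and PEX10, peroxisome membrane proteins, were called higher by 1.33 and 1.03. Of 28 heat shock and stress genes, 5 were called lower and 4 higher (median 0.03), near the 12.6% and 12.4% of all genes, and without cycle 3 the counts were 3 and 0. HSP78, a mitochondrial chaperone, and GRE3, aldose reductase, were among those called higher, by 1.64 and 1.65. HSP78 read 1.46, 4.74 and 2.56 at the burst and 9.90, 6.18 and 9.27 at the exit, and so rose by far more in cycles 1 and 3 than in cycle 2.

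A set of 12 genes had risen at least 2-fold into the burst in each cycle and stayed at the exit, and 8 of them were bright enough to be named. LEU1, isopropylmalate isomerase of leucine synthesis, read 2.43, 3.11 and 5.49 before, 18.2, 15.0 and 18.7 at the burst and 16.6, 13.9 and 18.3 at the exit. MET6, methionine synthase, read 9.14, 7.68 and 8.56 before, 22.7, 19.0 and 23.2 at the burst and 17.8, 21.3 and 22.5 at the exit. Both were called higher at the exit than before, by 2.21 and 1.27. The other 6 were GAS1, a cell wall glucan transferase, MRS3, a mitochondrial iron carrier, PAM18, a subunit of the mitochondrial import motor, PAN5, the probable pantothenate pathway reductase, CMR3 and CPP2. Their changes from burst to exit lay between -0.26 and 0.13 log2, each with an SE of 0.26 to 0.28. For all 8, burst and exit values overlapped, which the rule for staying made likely.

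**Figure D3:**
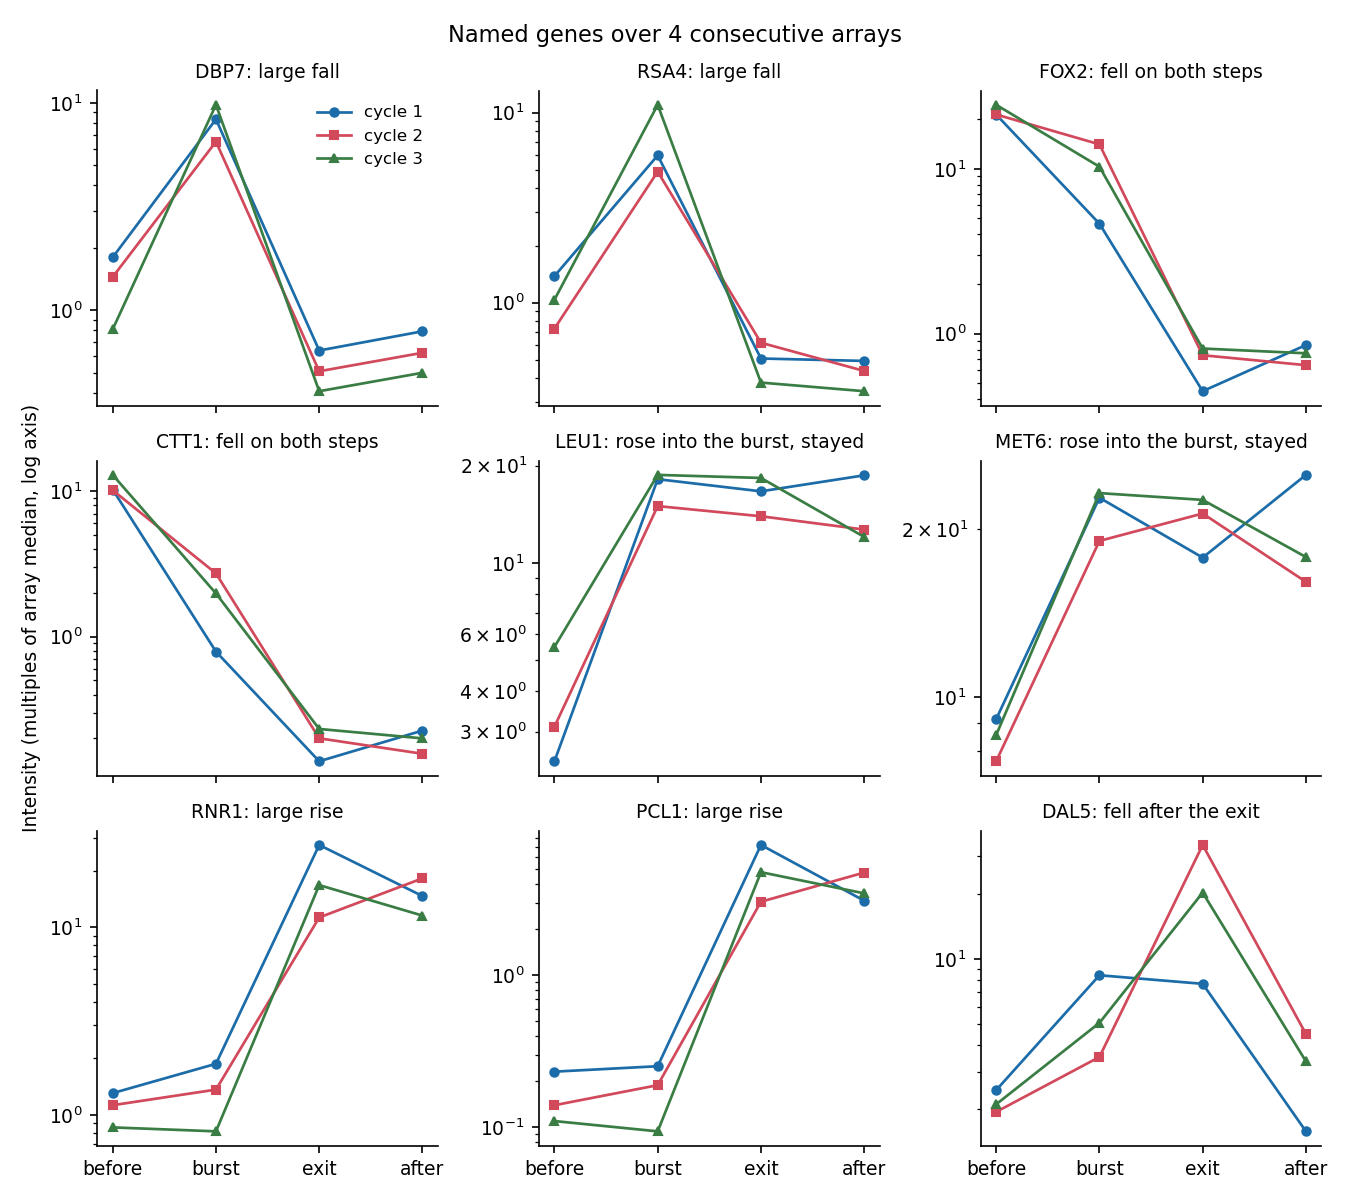
Intensity in multiples of the array median, on log axes that differ by panel, for 9 named genes over the arrays before, burst, exit and after, with 1 line per cycle. DBP7 and RSA4 peak at the burst, FOX2 and CTT1 descend on both steps, LEU1 and MET6 hold their burst level, RNR1 and PCL1 rise at the exit, and DAL5 peaks at the exit in cycles 2 and 3 only.

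The lists of biosynthetic pathways are set here against 12.6% of all genes called lower. Of 28 purine genes other than AAH1, 5 were called lower (median -0.46), with 0 without cycle 3 and 11 without cycle 2. Among them IMD4, IMP dehydrogenase, fell by 2.35, and GUA1, GMP synthase, by 1.63. GUA1 read 41.8, 26.4 and 37.1 at the burst and 6.79, 27.1 and 7.38 at the exit, so it had not fallen in cycle 2. Purine genes changed by a median of -0.92, 0.25 and -0.58 in the 3 cycles. In serine, threonine and one-carbon metabolism, 1 of 19 was called lower, and cycle medians were -0.42, 0.73 and -0.33. In sulfate assimilation and methionine synthesis, 0 of 26 were called either way in limma, 3 of 26 passed an unadjusted p under 0.05, and cycle medians were -0.39, 0.66 and -0.36. The medians of the sulfate and one-carbon lists turned sign, to -0.42 without cycle 2 and to 0.17 without cycle 1. In the smaller amino acid lists, 2 of 8 arginine and ornithine genes, 1 of 12 branched-chain genes and 2 of 21 aromatic and histidine genes were lower, and 1 of 10 glutamate and ammonium genes was higher. Of 10 lysine genes 0 were called in limma, with 1 at an unadjusted p under 0.05.

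Transcripts of mitochondrial translation rose together, and their counts are set here against 12.4% of all genes called higher. Of 75 mitochondrial ribosomal proteins, 64 were called higher and none lower, with a median of 1.27 and cycle medians of 1.38, 1.02 and 1.37. MRPL49 read 2.71, 1.94 and 1.82 at the burst and 8.89, 7.74 and 7.33 at the exit. MRPL8 read 2.33, 2.16 and 1.96 and then 8.57, 7.63 and 7.79. Exit values lay far above burst values in both, and the rises were 1.88 and 1.87 log2. MRPL17 and MRPL50 were among those not called and changed by 0.51 and 0.67. Without cycle 3 the count was 2 of 75 at a median of 1.22. Of 20 mitochondrial tRNA synthetases and translation factors, 18 were called higher (median 1.54), among them RRF1, the ribosome recycling factor, and MSF1, the phenylalanyl-tRNA synthetase, both by 2.37. Without cycle 3, 1 of the 20 was called, at a median of 1.60.

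Mitochondrial metabolism rose with it, and is set here against 12.4% of all genes called higher and 12.6% called lower. Among TCA cycle genes, 11 of 16 were called higher and 1 lower (median 1.44). IDH2, a subunit of isocitrate dehydrogenase, read 7.60, 6.84 and 4.12 at the burst and 34.4, 43.7 and 35.1 at the exit, and rose by 2.64 (adjusted p = 0.00099). KGD1, of ketoglutarate dehydrogenase, rose by 2.08. The member called lower was CIT3, a citrate and methylcitrate synthase, by 2.64. In oxidative phosphorylation, 26 of 38 were called higher and none lower (median 0.95). NDI1, the internal NADH dehydrogenase, rose by 2.50 and SDH1, of succinate dehydrogenase, by 2.17. NDE2, an external NADH dehydrogenase, changed by -1.49 (adjusted p = 0.053). Without cycle 3, 3 TCA cycle and 3 oxidative phosphorylation genes were called higher, at medians of 1.38 and 0.97, and without cycle 1 the oxidative phosphorylation count was 13. Mitochondrial import and chaperone genes had 8 of 34 called higher (median 0.56), and 1 without cycle 3, led by MIA40, of intermembrane-space import, by 2.27.

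The largest rise of any named gene was in a list of the G1 to S transition and DNA replication. Of 54 members, 34 were called higher and none lower, with a median of 1.54, against 12.4% of all genes called higher. Without cycle 3 the count was 17. PCL1, a G1 cyclin of the Pho85 kinase, read 0.252, 0.189 and 0.0939 at the burst and 7.18, 3.04 and 4.75 at the exit. It rose by 4.43 ± 0.33 log2 (SE, n = 3, adjusted p = 0.000514). Its burst values were low, with 0.0939 near the added constant of 0.0516, so the size of its rise is uncertain. RNR1, the large subunit of ribonucleotide reductase, read 1.87, 1.36 and 0.816 and then 27.4, 11.3 and 16.8, and rose by 3.71 ± 0.32. CLN1, a G1 cyclin, rose by 3.42, YOX1, a repressor of cell cycle genes, by 3.33 and POL30, the replication clamp, by 2.88. No exit value of these 5 genes overlapped a burst value, which their choice as large rises largely fixed. In all 5 the order of the exit arrays was cycle 1, cycle 3, cycle 2. RNR4, a small subunit of the reductase, changed by -0.62 (adjusted p = 0.14) and was called lower at the exit than before. Of histones, HTB2 was called higher by 1.05, and HTB1 and HTZ1 changed by 0.22 and 0.28.

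The other large rises were of mixed function. AIM33 read 0.236, 0.267 and 0.218 at the burst and 2.70, 5.86 and 4.63 at the exit, and rose by 3.86 ± 0.30 (SE, n = 3, adjusted p = 0.000514). AIM17 rose by 2.94, ERP3, of the p24 family of vesicle proteins, by 2.84, PET117, of cytochrome oxidase assembly, by 2.82, EDS1, a zinc cluster protein, by 2.74, MLO50 by 2.69 and PRY2, a secreted sterol-binding protein, by 2.68. HXK1, hexokinase 1, rose by 2.64, from 7.53, 6.64 and 4.64 to 43.8, 35.2 and 37.4. In glycolysis and fermentation as a whole, 4 of 21 were called higher and 2 lower, against 12.4% and 12.6% of all genes. ADH2, the alcohol dehydrogenase that uses ethanol, fell by 2.53. ELO1, a fatty acid elongase, rose by 2.29.

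Storage carbohydrate genes recovered part of an earlier loss. Of 20 trehalose and glycogen genes, 11 were called higher at the exit than at the burst and none lower (median 0.94), and without cycle 3 the count was 0 at the same median. TSL1, of trehalose synthase, read 7.41, 10.9 and 11.3 before, 0.944, 1.68 and 0.951 at the burst and 3.25, 5.74 and 4.59 at the exit. It rose by 1.89 and was still called lower than before the burst, with a change of -1.13. PGM2, phosphoglucomutase, rose by 1.66, to 8.74, 14.7 and 15.4, and its change from before was -0.22 and not called. Among proteasome genes, 2 of 33 were called higher (median 0.46), and cycle medians were 0.86, 0.05 and 0.46. Of 13 reference genes 0 were called in limma and 0 passed an unadjusted p under 0.05 (median 0.08). Among the lists not yet described, 3 of 27 nuclear pore genes, 2 of 12 hexose transporters, 3 of 15 chaperonin and prefoldin genes and 3 of 30 mitosis genes were called lower, and 1 mitosis gene was higher. Of 30 ergosterol and fatty acid genes, 3 were called lower and 2 higher. Over all genes 12.6% were called lower and 12.4% higher, and nothing is read from the counts of these last lists.

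**Figure D4:**
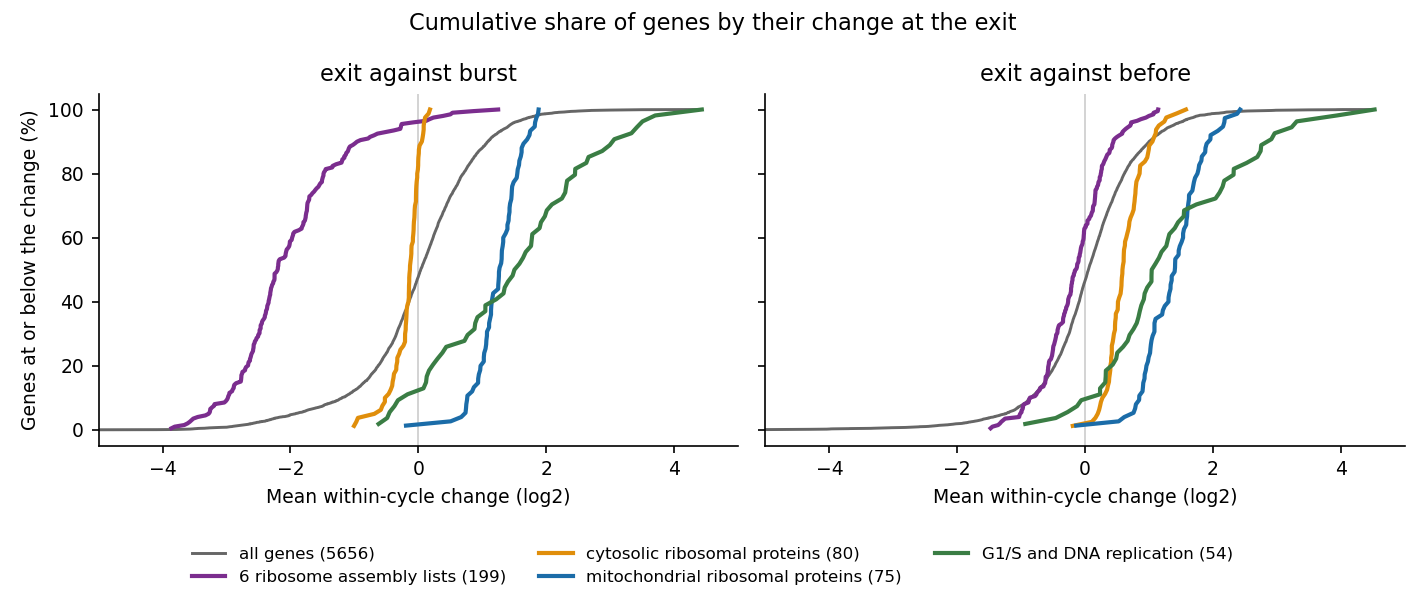
Cumulative share of genes (%) against the mean within-cycle log2 change, for exit against burst (left) and exit against before (right). The 199 assembly genes lie to the left of all 5656 genes at the exit against the burst, with a median of -2.20, and much closer to them at the exit against before, while the 75 mitochondrial ribosomal and the 54 G1/S genes lie to the right in both.

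The exit arrays were also set against the arrays before the burst. The burst array was taken as the first high interval of NSR1 and AAH1, so the array before it had to be low in those genes, and this comparison is not free of that choice either. Of 5656 genes, 680 were called lower (12%) and 859 higher (15.2%) at the exit than before the burst. Each count stayed within 1.5 times of these under every alternative that was run. Of the 199 assembly genes, 176 were not called, 20 were called lower and 3 higher. The 20 called lower are near the 12% of all genes, while the 3 called higher are far below the 15.2% of all genes.

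On the step into the burst, 22.3% of genes were called higher and 19.1% lower, and the choice of the burst arrays bears on these calls as well. The change from before to exit is the sum of the steps into and out of the burst. Sorting genes by these steps therefore largely fixed the counts that follow, and a gene not called has not been shown to return. Of the 541 genes that were called higher into the burst and lower out of it, 448 were not called from before, 68 ended below and 25 above. Conversely, 322 genes were called lower into the burst and higher out of it, and 257 of these were not called from before. Another 364 genes did not pass the test into the burst but were called higher out of it, and 288 of them ended above their level before. Of the 260 genes that rose at least 2-fold in each cycle, 182 were called higher at the exit than before and 6 lower.

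Among named genes, the largest loss across the burst was that of CTT1, which fell by 5.54 ± 0.22 log2 (SE, n = 3, adjusted p = 7.94e-06). Its low exit values leave this size uncertain. GRE1 read 19.5, 17.2 and 19.7 before and 0.455, 0.415 and 0.533 at the exit, a change of -5.19. TKL2, HEF3, FOX2 and FAT3 followed, with changes of -5.12, -5.10, -5.0 and -4.78. By list, 23 of 39 peroxisome and fatty acid oxidation genes were called lower than before and none higher (median -1.08), against 12% of all genes called lower. So were 14 of 28 heat shock and stress genes (median -0.81), 8 of 20 trehalose and glycogen genes and 5 of 8 arginine and ornithine genes.

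The largest gains among named genes were those of PCL1, by 4.53, and FET3. FET3, the multicopper oxidase of iron uptake, read 0.870, 0.667 and 0.787 before, 6.92, 1.96 and 2.93 at the burst and 13.6, 13.5 and 12.9 at the exit, higher by 4.03 ± 0.21 (SE, n = 3, adjusted p = 1.3e-05). RNR1 was higher by 3.94 and AIM33 by 3.81. GIC2, an effector of Cdc42 in budding, read 0.284, 0.174 and 0.252 before and 4.21, 3.91 and 4.71 at the exit, higher by 3.92, and SCW10 was higher by 3.8. By list, 67 of 75 mitochondrial ribosomal proteins, 35 of 54 G1/S genes, 15 of 28 purine genes, 15 of 26 sulfate and methionine genes and 11 of 19 serine, threonine and one-carbon genes were called higher than before, against 15.2% of all genes. The medians of the last 3 lists were 0.95, 0.85 and 1.18.

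**Figure D5:**
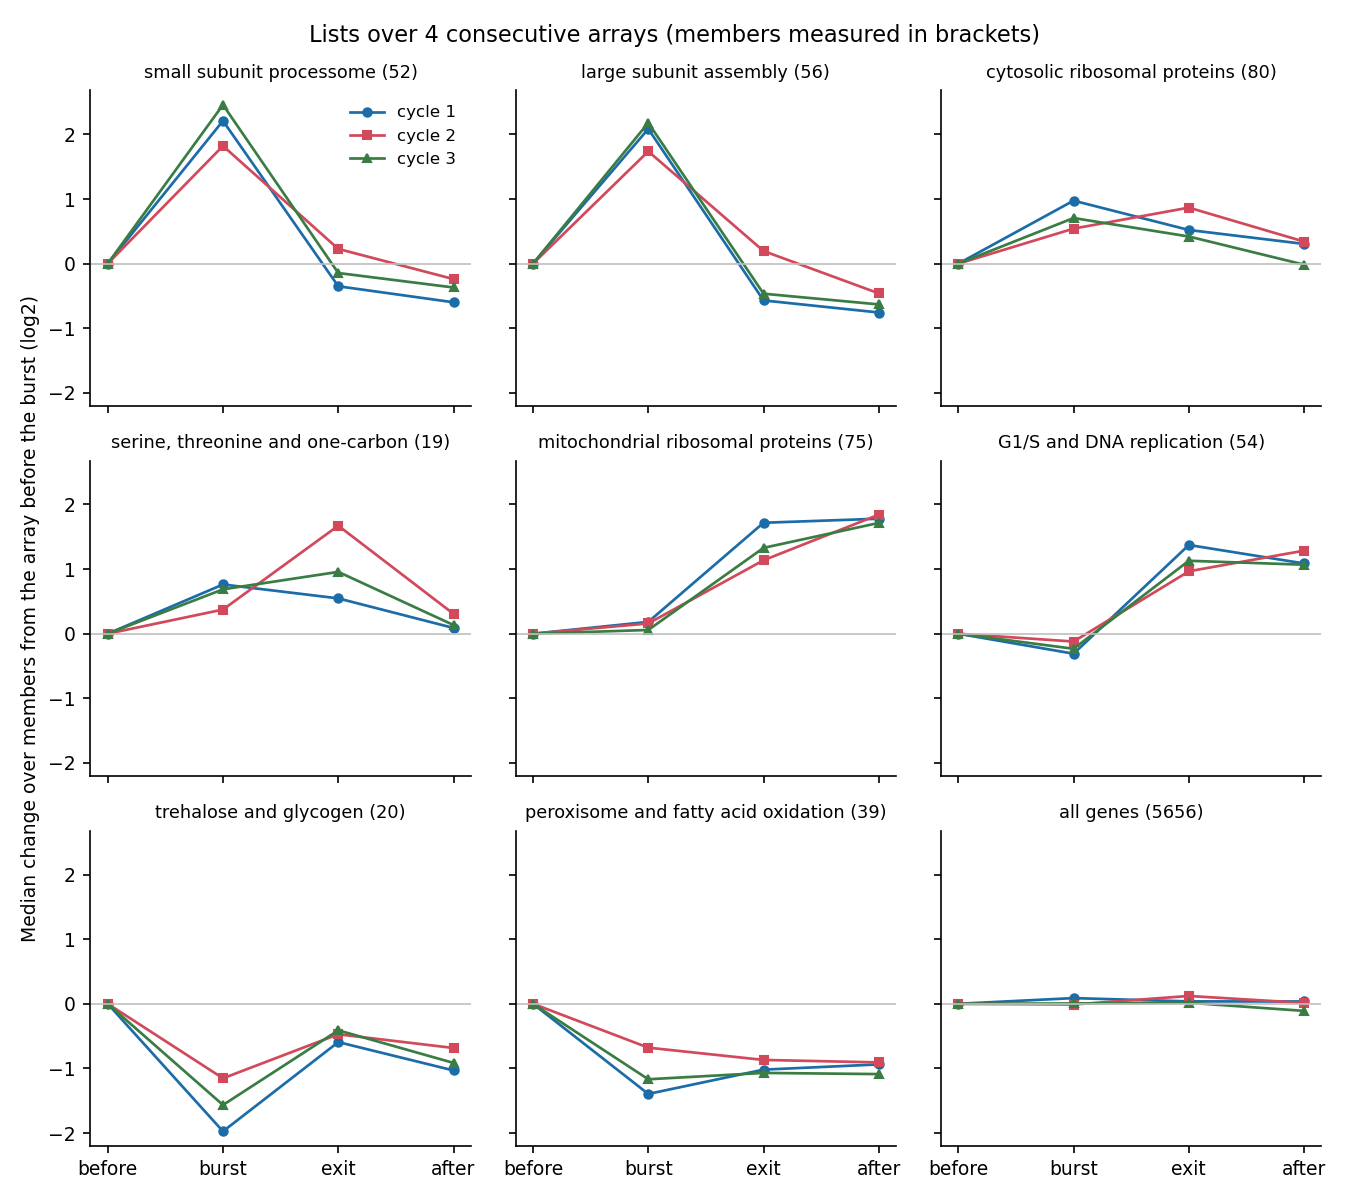
Median log2 change over the members of 8 gene lists and of all 5656 genes, relative to the array before the burst of the same cycle, over the arrays before, burst, exit and after, with 1 line per cycle. The assembly lists peak at the burst and return near 0 at the exit, mitochondrial ribosomal proteins and G1/S genes step up at the exit, and storage carbohydrate and peroxisome genes stay below 0.

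The interval after the exit held far fewer calls. From exit to after, 71 genes were called lower (1.26%) and 38 higher (0.672%), and 1121 passed an unadjusted p under 0.05. These counts depended on the fit: without the replicate block they were 1 and 0, and without cycle 3 they were 0 and 0, with 635 at an unadjusted p under 0.05. Of the 392 dropped genes, 7 were called lower again, and their median change was -0.07.

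The 12 genes named for this interval kept the call in 1 case without the replicate block, in 1 with arrays scaled to one trimmed mean and in 0 without cycle 3. DAL5, the allantoate permease, read 8.40, 3.51 and 5.05 at the burst, 7.67, 33.8 and 20.3 at the exit and 1.58, 4.48 and 3.34 after it. It fell by 2.58 ± 0.20 log2 (SE, n = 3, adjusted p = 0.000843), with no overlap between exit and after. DAL3, ureidoglycolate lyase, fell by 2.19, DAL4, the allantoin permease, by 2.13, and PUT4, the proline permease, by 1.90. HXT2, a hexose transporter, read 3.05, 21.8 and 12.8 at the exit and 1.84, 1.84 and 1.43 after it. DBP2, an RNA helicase of the assembly list, fell on both steps: from 36.9, 22.3 and 34.5 to 2.53, 8.66 and 5.38 and then to 1.67, 0.975 and 1.11. Of 19 serine, threonine and one-carbon genes, 7 were called lower in this interval, as were 6 of 28 purine genes, 4 of 16 permeases and none of the 80 ribosomal proteins, against 1.26% of all genes. With 1 gene of 5656 called lower without the block and 0 without cycle 3, nearly all of these list calls are lost there.

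The genes that rose after the exit included HTB2, histone H2B, from 7.99, 3.73 and 5.32 to 21.2, 15.2 and 18.3 (by 1.73, adjusted p = 0.010). SIM1 and SRL1, cell wall proteins, rose by 1.77 and 1.61, and CLB1, a mitotic cyclin, by 1.58, from 0.222, 0.142 and 0.175 to 0.942, 0.446 and 0.591. PGM1, the minor phosphoglucomutase, rose by 1.61. CAT2, carnitine acetyltransferase, had fallen by 2.13 at the exit and rose by 1.49 after it, from 0.759, 0.367 and 0.431 to 1.91, 1.41 and 1.22. Of 30 mitosis genes, 5 were called higher here and none lower, against 0.672% of all genes called higher. Without the replicate block, with trimmed-mean scaling or without cycle 3, 0 of 5656 genes were called higher. The calls of mitosis genes are lost there.

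The 3 cycles did not make the same step. Across genes, the changes of cycles 1 and 3 had a Pearson correlation of 0.80, cycles 2 and 3 of 0.74 and cycles 1 and 2 of 0.53. These are descriptions over 5656 genes that share arrays and are not independent. In cycle 2 the assembly lists had fallen less: the list medians were -2.64, -1.73 and -2.60 for the small subunit processome and -3.05, -1.42 and -3.0 for the helicases in cycles 1, 2 and 3. The medians of G1/S genes were 1.91, 0.96 and 1.59. Among the 260 genes that rose, 104 (40%) had the order cycle 1, cycle 3, cycle 2 at the exit array, against 23.6% of all genes.

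In cycle 2, a few transcripts picked after their values were seen had not fallen by the exit. MUP1, the high-affinity methionine permease, read 16.1, 17.1 and 21.9 at the burst and 3.41, 19.8 and 6.62 at the exit. GUA1 and SAM1 were likewise no lower at the exit than at the burst in cycle 2 alone, and SAM1, S-adenosylmethionine synthetase, read 5.46, 17.0 and 7.85 at the exit. In the next arrays, PCL1 read 3.09, 4.73 and 3.45 and RNR1 14.7, 18.2 and 11.5, so that cycle 2 was then the highest. On the same arrays, the mean log2 intensity of 33 bacterial spike controls was -1.98, -2.51 and -2.40 at the burst and -2.14, -2.22 and -2.44 at the exit, and that of 5 probe sets of 18S ribosomal RNA was 1.57, 1.76 and 1.36 and then 1.03, 1.67 and 1.11. Their part in the difference between cycles was not tested.

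Some of the genes that dropped were neighbours on the chromosome. In the gene order of the R64 assembly, counting adjacent genes that do not overlap, 92 of 392 dropped genes (23.5%) had a dropped neighbour, while 13.3% of all genes had one. For the genes that rose the shares were 15.4% and 8.98%, and for those that stayed 29.2% and 25.9%. No test was made of these shares. There were 51 adjacent pairs of dropped genes, and the examples that follow were chosen after their values were seen. RSA3, UTP13 and IFH1 stood in a row and fell by 2.47, 3.26 and 3.53. RPC19, DBP2, CYB5 and NOP15 formed a run that fell by 2.31, 2.62, 1.47 and 2.53. DBP7 lay next to RPC37, of RNA polymerase III, which fell by 2.78. The dropped genes had a median annotated length of 1272 bases, the genes that rose 1084 and all genes 1216.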

How the data were processed

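Total RNA of 36 samples was measured on 36 arrays. The authors deposited a linear intensity for every probe set. How they summarised and scaled the probes is not stated in the labels. The values show that each array's median is 1 and that 381 values are 0. No detection calls were used, so the precision at low signal is unknown. That bears on the sizes of change of PCL1 and AIM33, low at the burst, and of CTT1 and CLB1, low at the exit. Of 9335 probe sets, 6504 had 1 gene symbol, 328 had several and 60 were controls. For each of 5656 genes the brightest probe set on average was used, and 282 of these can match several transcripts.

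The fits used log2(value + 0.0516). The added constant is the 10th percentile over all positive intensities, so changes of dim genes are understated. Each comparison was fitted on its own 6 arrays with limma 3.58.1 in R 4.3.3, with the cycle as a block. The variance prior followed the mean intensity, and p-values were adjusted by Benjamini-Hochberg over 5656 genes, with a threshold of 0.05. Fits were tested on simulated data: for exit against burst, 52% of genes changed by 2 log2 and 2% of genes changed by 1 log2 were recovered. The simulation changed only 50 genes at each size and added no cycle effect, whereas 1412 genes were called in the data. Its shares therefore need not hold for the real fit. Counts and medians describe the 41 lists, from which NSR1 and AAH1 were left out, and no set test was made. Tables were made with Python 3.11.15, numpy 2.4.6 and pandas 2.3.3, and figures with matplotlib 3.10.9.

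The members, lists and tests were chosen with earlier results of these data known. Named genes were, among the 4242 genes above the dimmest 25%, the 12 largest falls and 12 largest rises from burst to exit, the 8 that rose at least 2-fold into the burst and stayed, the 6 largest in each direction of the other comparisons, and, in each list, the 2 largest falls, the 2 largest rises and the smallest change. The cycle number comes from the labels. Same-numbered arrays deviated together with correlations of -0.013, -0.211 and -0.036 for exit against burst, -0.116, -0.132 and 0.019 for exit against before, and 0.273, 0.148 and 0.042 for after against exit. Alternatives covered the block, the arrays in the fit, scaling, pseudocount, dim genes, probe set, trend, alignment and each cycle left out. Promoter motifs were not analysed here.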

Additional observations from a re-analysis of the deposited data

How the results depend on the processing

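Named genes were not recomputed at labelled positions. Under the other alternatives none that was called turned direction. This was largely fixed in advance, since those fits reuse the arrays that made the calls. For exit against burst, the counts of 710 lower and 702 higher became 820 and 868 with no replicate block, so the paired fit made fewer calls, and 702 and 679 of the genes were shared. With 12 arrays in 1 fit 1193 genes were called higher, and with all 36 arrays 1193 were called lower and 1397 higher. Leaving out 1 cycle gave 226 to 791 lower and 67 to 752 higher. With labelled positions in place of the aligned arrays (10 against 9, or 9 against 8) the counts were 0 and 0 in limma in both, with 767 and 371 genes at an unadjusted p under 0.05. There, 662 and 676 of the 710 lower genes and 596 and 659 of the 702 higher genes kept their sign. These fits reuse main pairs: 10 against 9 holds the exit and burst arrays of cycle 1, and 9 against 8 those of cycles 2 and 3. Their other pairs are different steps. The kept signs were thus partly fixed in advance and say nothing about the alignment. Lists with a median at least 1 log2 lower were 6 as aligned, 4 for 10 against 9 and 0 for 9 against 8, and lists at least 1 log2 higher were 4 as aligned and 1 in each. Leaving out 1 cycle gave 414 to 630 dropped genes, 1177 to 1378 that stayed and 305 to 521 that rose, since fewer cycles must meet the rule. Counts for exit against before stayed within 1.5 times. For after against exit, 71 lower and 38 higher became 1 and 0 with no replicate block, 4 and 5 with 12 arrays, 121 and 76 with all 36, 25 and 24 with quantile normalization, 1 and 0 with arrays scaled to one trimmed mean, and 0 to 252 and 0 to 115 with 1 cycle left out. The unadjusted counts behind the zeros were 892 with no replicate block, 1094 with the trimmed mean and 635 without cycle 3. The cause was not tested. No scaling moved the median of all genes by over 0.1 log2. Promoter motifs, in either window, were not run. Arrays number 3 per group, which limits the precision of every change.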
